A study of Homo sapiens with 12 samples.

Results

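The 34 genes described here encode the folding machinery of the endoplasmic reticulum (ER), the sensors and transcription factors of its stress response, and factors of ER-associated degradation. They were chosen by name, and each of the 34 was found as 1 feature among the 24331 features of the deposited FPKM table (fragments scaled by transcript length and by the total mapped in the library). Expression was measured by RNA-sequencing in MDA-MB-231 cells, a human line from a triple-negative breast cancer, before and after PMA/Ionomycin, which activates protein kinase C and lets calcium into the cytosol. The groups were wild-type (WT) cells at 0 h, 6 h and 24 h and ΔCRE cells at 0 h, 6 h and 24 h, with 2 libraries in each of the 6 groups. ΔCRE cells lack a part of the core-regulatory element (CRE) of the ETS1 promoter that holds NFAT and NF-κB sites, cut out with CRISPR/Cas9. They keep the rest of the element, where the paper reports further conserved motifs for these factors. The number of ΔCRE clones behind the libraries is not given in the sources used here, so the deletion and the clone cannot be told apart. PMA and Ionomycin were given together and no unstimulated library was taken at 6 h or 24 h, so the 2 agents, and stimulus and time in culture, cannot be told apart either.

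The ER folds secreted and membrane proteins with the help of chaperones, lectins and enzymes that form disulphide bonds, and many of these need the calcium stored in the ER lumen. Emptying of that store, which a calcium ionophore can cause, or a load of unfolded protein switches on the unfolded protein response through the 3 sensors IRE1 (encoded by ERN1), PERK (EIF2AK3) and ATF6. IRE1 splices the mRNA of XBP1, PERK phosphorylates the initiation factor eIF2α and lets ATF4 be translated, and cleaved ATF6 moves to the nucleus. The transcription factors that result are known to raise chaperones such as BiP (HSPA5), degradation factors such as HERPUD1, and the regulators DDIT3 (CHOP) and PPP1R15A (GADD34). FPKM per gene does not separate spliced from unspliced XBP1 mRNA, and it does not report sensor activity.

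The library labelled ΔCRE 0 h replicate 1 stood apart. Its FPKM values summed to 1423335 against 566255 to 651080 in the other 11 libraries, and 10 markers of gut epithelium summed to 10282 FPKM in it against 2.19 to 3.46. It was left out of the tests reported here, other than the fits named as using all 12 libraries, so ΔCRE 0 h is a single library whose spread was taken to be that of the other groups. In the 11 libraries 8 markers of MDA-MB-231 cells summed to 2300 to 3901 FPKM and 6 luminal and epithelial markers listed as absent from the line, CDH1 among them, to 2.49 to 4.91, with 2 of the 6 (GATA3 and FOXA1) reaching 1 FPKM. ETS1, next to the deletion, stood at 62.8 and 62.2 FPKM in ΔCRE cells at 6 h against 139 and 145 in WT cells, and at 16.5 in the single ΔCRE library at 0 h against 24.0 and 23.7. The stimulus was seen in IL8, which went from 1.76 and 1.49 FPKM at 0 h to 1605 and 1594 at 6 h in WT cells. IL8 had the largest difference of 14 genes listed to check the response. Of the 14, 10 were higher and 1 lower at 6 h by the test described below, against 23.3% and 21.1% of all features. In bulk RNA, fewer cells that express a gene and less RNA per cell cannot be told apart.

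The DNA letters through which ATF6 and XBP1 are known to act were searched in the promoters of the members. No expression value enters this search. The members were chosen by name as genes of this response, however, so a high share of sites among them is no independent support. The ER stress response element (ERSE) was searched as CCAAT, any 9 bases, CCACG, and a second form (ERSE-II) as ATTGG, any base, CCACG, on both strands, in windows from 250 bases before to 50 bases after each start (RefSeq, GRCh38.p14). A window was given for 31 of the 34 members, all but PDIA3, DERL1 and DERL3. ERSE was present for 9 of the 31 members and in 0.0769% of the 35116 promoters, and ERSE-II for 3 members and in 0.0541%. The sites shown belong to chaperones, to HERPUD1 of the degradation machinery and to XBP1, members that the results turn on. The capitals mark the matched letters, each sequence is read on the strand of the motif, and the positions are those of the match on hg19, found by exact match of the window.
HSPA5, ERSE, chr9:128003670-128003688, minus strand: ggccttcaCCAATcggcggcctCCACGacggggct
XBP1, ERSE, chr22:29196591-29196609, minus strand: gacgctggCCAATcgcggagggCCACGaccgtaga
HSP90B1, ERSE, chr12:104323994-104324012, plus strand: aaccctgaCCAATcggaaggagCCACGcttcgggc
HSP90B1, ERSE, chr12:104324099-104324117, minus strand: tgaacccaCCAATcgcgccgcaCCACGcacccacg
CALR, ERSE, chr19:13049198-13049216, minus strand: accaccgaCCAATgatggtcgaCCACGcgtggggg
CANX, ERSE, chr5:179125779-179125797, plus strand: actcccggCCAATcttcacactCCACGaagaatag
CRELD2, ERSE, chr22:50312202-50312220, minus strand: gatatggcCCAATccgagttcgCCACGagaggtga
HERPUD1, ERSE-II, chr16:56965937-56965947, plus strand: ggacgccgATTGGgCCACGttgggaga
SDF2L1, ERSE-II, chr22:21996403-21996413, minus strand: gggttttgATTGGtCCACGcttccgag
HYOU1, ERSE-II, chr11:118928091-118928101, plus strand: ggcctgggATTGGaCCACGtcacgggg
HYOU1, ERSE-II, chr11:118927985-118927995, plus strand: gcgtactcATTGGaCCACGtcccaggc
The HSPA5 site lies 66 to 48 bases before the RefSeq start used for its window, and the XBP1 site 52 to 34 bases before its own. These starts differ from the feature ends printed for the 2 genes below. ERO1LB, PDIA6 and SERP1 hold an ERSE as well. HYOU1 has 2 ERSE-II sites, and an XBP1 element (UPRE, searched as TGACGTGG) overlaps the outer one. UPRE was present in 0.729% of all promoters and for 2 members, HYOU1 and TXNDC5.

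In WT cells nearly the whole set was higher at 6 h of PMA/Ionomycin than at 0 h. 33 members averaged 1 FPKM or more in the 11 libraries and were tested. Of these, 30 were higher than at 0 h and 0 were lower at an adjusted p under 0.05 (limma on log2(FPKM + 1), Benjamini-Hochberg over 11256 features; a gene past this threshold is named as called). Over all features, 23.3% were called higher and 21.1% lower. An unadjusted p under 0.05 was reached by 30 members, the 30 that rose. The median log2 difference was 0.74 over the members and -0.00 over all features, and 12 members had a mean FPKM at least 2-fold that at 0 h. The shares of all features with such a ratio or with an unadjusted p under 0.05 were not determined. The exceptions were ATF6 (log2 difference 0.06, adjusted p = 0.552), CREB3L2 (0.09, 0.346) and WFS1 (-0.13, 0.221). DERL3, a paralog of the degradation factors DERL1 and DERL2, was below the minimum at 0.0795 to 0.721 FPKM in the 11 libraries and was not tested. After rescaling to TPM the median of all features moved to -0.12 and that of the members to 0.65, with 27 members called higher and WFS1 called lower. Of all features called, 52.5% were higher on FPKM and 35.0% on TPM. With the library labelled ΔCRE 0 h replicate 1 in the fit, 9 members were called, all higher.

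**Figure D1:**
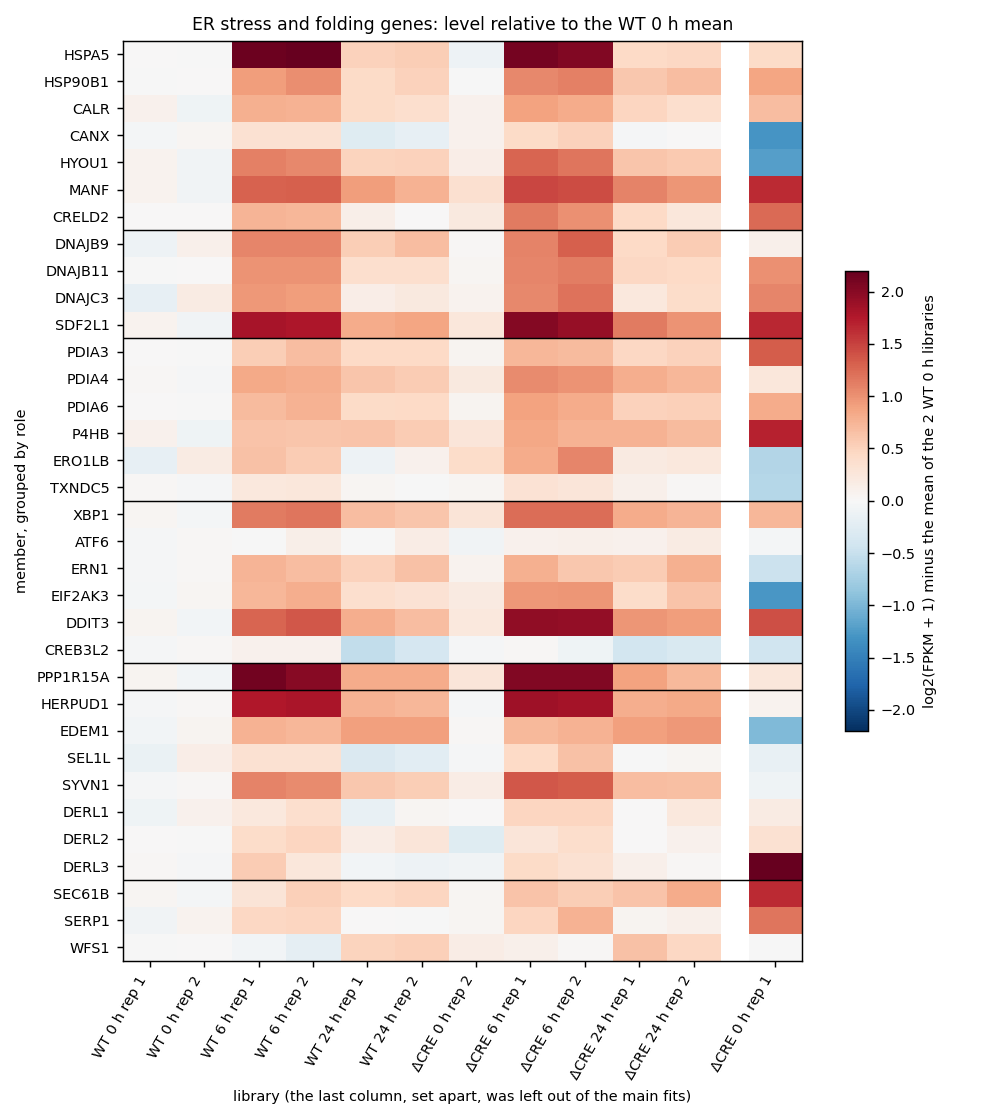
Each column is a library and each row a member, grouped by role. Color gives log2(FPKM + 1) minus the mean of the 2 WT 0 h libraries. The 6 h columns of both lines are red in nearly every row, the 24 h columns are paler, and the library labelled ΔCRE 0 h replicate 1, set apart on the right, has its own pattern.

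Among the chaperones and lectins, all 7 members were called higher at 6 h in WT cells. HSPA5 (chr9:127997126-128003666), which encodes BiP, the major Hsp70 of the ER and the holder of the stress sensors in their resting state, stood at 296 and 295 FPKM in WT cells at 0 h, at 1314 and 1379 at 6 h and at 422 and 428 at 24 h. In ΔCRE cells it stood at 274 FPKM in the single library at 0 h, at 1273 and 1222 at 6 h and at 400 and 405 at 24 h. The times did not overlap in either line, and the WT mean rose 4.56-fold by 6 h (log2 difference 2.18, SE 0.0491, adjusted p = 1.3e-08), a larger log2 difference than for 99.2% of all features. MANF, a secreted calcium-dependent partner of BiP, went from 148 and 132 FPKM to 346 and 349 (log2 difference 1.31, SE 0.0745). HYOU1, the ER Hsp110 that exchanges nucleotide on BiP, went from 76.4 and 68.2 to 157 and 152 FPKM (1.09, SE 0.0651). HSP90B1, the ER Hsp90 (GRP94), went from 446 and 454 to 849 and 916 FPKM (0.97, SE 0.0611). For these 3 genes, as for 31 of the 33 tested members in all, both 6 h libraries lay above both 0 h libraries. The share of all features with this order was not determined. CALR (calreticulin, a lectin and calcium store) went from 551 and 480 to 883 and 872 FPKM and CRELD2 from 17.9 and 17.9 to 30.7 and 30.5. The membrane lectin CANX (calnexin) moved least of the 7, from 317 and 339 to 412 and 413 FPKM (log2 difference 0.33, SE 0.0571).

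All 4 co-chaperones of BiP were higher. SDF2L1, which forms a complex with the J-proteins of the ER, stood at 47.1 and 42.1 FPKM at 0 h, at 159 and 156 at 6 h and at 79.6 and 82.2 at 24 h in WT cells. In ΔCRE cells the values were 52.8, then 184 and 171, then 99.1 and 88.9 FPKM. The WT log2 difference at 6 h was 1.80 (SE 0.0748, adjusted p = 5.7e-07), the third of the 33 after HSPA5 and PPP1R15A. The J-proteins DNAJB9, DNAJB11 and DNAJC3 differed much in level and little in change. DNAJB11 went from 71.9 and 72.0 FPKM to 144 and 144 (log2 difference 0.99, SE 0.0437). DNAJC3 went from 8.70 and 11.6 FPKM to 20.4 and 19.9 (0.94, SE 0.117). DNAJB9, which binds IRE1, went from 3.15 and 3.90 to 8.46 and 8.51 FPKM (1.07, SE 0.107), and at this level the added 1 lowers the log2 value.

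Genes of disulphide bonding were higher too, by smaller steps. All 6 were called at 6 h, with log2 differences from 0.24 to 0.81. PDIA4 led, at 123 and 120 FPKM at 0 h and 216 and 211 at 6 h. PDIA6 went from 188 and 185 to 304 and 318 FPKM, PDIA3 (the partner of calreticulin and calnexin) from 167 and 165 to 242 and 266, and P4HB (PDI itself) from 285 and 248 to 410 and 408. No 6 h library of these 4 isomerases overlapped a 0 h library. ERO1LB, an oxidase that reloads PDI, was low at 2.17 and 3.03 FPKM and rose to 4.62 and 4.27. TXNDC5 moved least of the called members (log2 difference 0.24, SE 0.0512, adjusted p = 0.00520), and its feature in the table also names BLOC1S5 and EEF1E1, so its value is not that of TXNDC5 alone. Its call was lost under quantile normalization, as were those of CANX and DERL1.

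Of the 6 sensors and transcription factors, 4 were called. XBP1 (chr22:29190547-29196560), whose spliced mRNA encodes the factor made by the IRE1 branch, stood at 47.1 and 44.0 FPKM at 0 h, at 102 and 104 at 6 h and at 73.6 and 70.4 at 24 h in WT cells. In ΔCRE cells the values were 55.6, then 108 and 108, then 81.1 and 77.4 FPKM. The WT log2 difference at 6 h was 1.16 (SE 0.0537, adjusted p = 1.0e-06). The sensors themselves differed. ERN1 went from 0.612 and 0.655 to 1.74 and 1.61 FPKM, a 2.64-fold mean ratio at a very low level. EIF2AK3 went from 3.87 and 4.18 to 7.38 and 7.70 FPKM (log2 difference 0.77, SE 0.0840). ATF6 stayed between 10.2 and 12.5 FPKM in all 11 libraries. CREB3L2, a membrane-bound factor related to ATF6, was called in no line at 6 h.

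DDIT3 encodes CHOP, the factor that sustained stress is known to raise. In WT cells it stood at 22.2 and 20.2 FPKM at 0 h, at 52.7 and 55.9 at 6 h and at 37.4 and 34.5 at 24 h. In ΔCRE cells it stood at 24.9 FPKM at 0 h, at 84.8 and 84.2 at 6 h and at 42.6 and 40.9 at 24 h. The WT log2 difference at 6 h was 1.32 (SE 0.0659, adjusted p = 1.7e-06). DDIT3 overlaps the genes MARS (methionyl-tRNA synthetase) and MBD6 on the other strand, and whether the authors counted by strand is not given in the sources used here. MARS differed by 0.16 on the log2 scale at 6 h (adjusted p = 0.103), and MBD6 was called higher, by 0.61 (adjusted p = 0.000322). PPP1R15A (chr19:49375648-49379319), the GADD34 subunit that brings a phosphatase to eIF2α, stood at 36.2 and 33.6 FPKM at 0 h, at 155 and 142 at 6 h and at 62.3 and 62.2 at 24 h in WT cells. In ΔCRE cells the values were 42.2, then 146 and 147, then 65.3 and 58.0 FPKM. Its WT log2 difference at 6 h was 2.06 (SE 0.0714, adjusted p = 1.7e-07), next to that of HSPA5.

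All 6 tested factors of ER-associated degradation were called higher at 6 h. HERPUD1 (chr16:56965747-56977793), a membrane scaffold of the HRD1 complex, stood at 23.6 and 24.6 FPKM at 0 h, at 84.6 and 85.7 at 6 h and at 41.4 and 40.6 at 24 h in WT cells. In ΔCRE cells the values were 23.6, then 90.2 and 88.3, then 42.9 and 43.7 FPKM. The WT mean rose 3.53-fold by 6 h (log2 difference 1.78, SE 0.0475, adjusted p = 3.4e-08). SYVN1, the HRD1 ubiquitin ligase, went from 18.2 and 19.0 to 40.7 and 39.2 FPKM (1.06, SE 0.0521). Its exons overlap those of FAU on the same strand, which stood at 900 and 868 FPKM at 6 h (0.25, adjusted p = 0.0452). MRPL49, which overlaps SYVN1 on the other strand, differed by 0.00. SEL1L, the adaptor of SYVN1, changed far less, from 9.11 and 11.3 to 13.0 and 13.1 FPKM (0.33, adjusted p = 0.0267). EDEM1, which trims mannose from misfolded glycoproteins, went from 15.2 and 16.8 to 27.7 and 27.3 FPKM (0.74, SE 0.0598). DERL2 (0.43) and DERL1 (0.30, adjusted p = 0.0437) closed the group. The calls of CANX, SEL1L and DERL1 were lost on TPM. Leaving out WT 0 h replicate 1 or either WT 6 h library ended the calls of SEL1L (0.19 to 0.34, adjusted p from 0.0976 to 0.142) and DERL1 (0.21 to 0.36), and either ΔCRE 6 h library also ended that of DERL1 (adjusted p from 0.0660 to 0.205 over the 5 fits). SEC61B, a subunit of the translocation channel, had a log2 difference of 0.40 (0.35 without WT 0 h replicate 2 and 0.28 without WT 6 h replicate 2, adjusted p = 0.0534 and 0.0544) and SERP1, which guards membrane proteins during stress, one of 0.46.

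**Figure D2:**
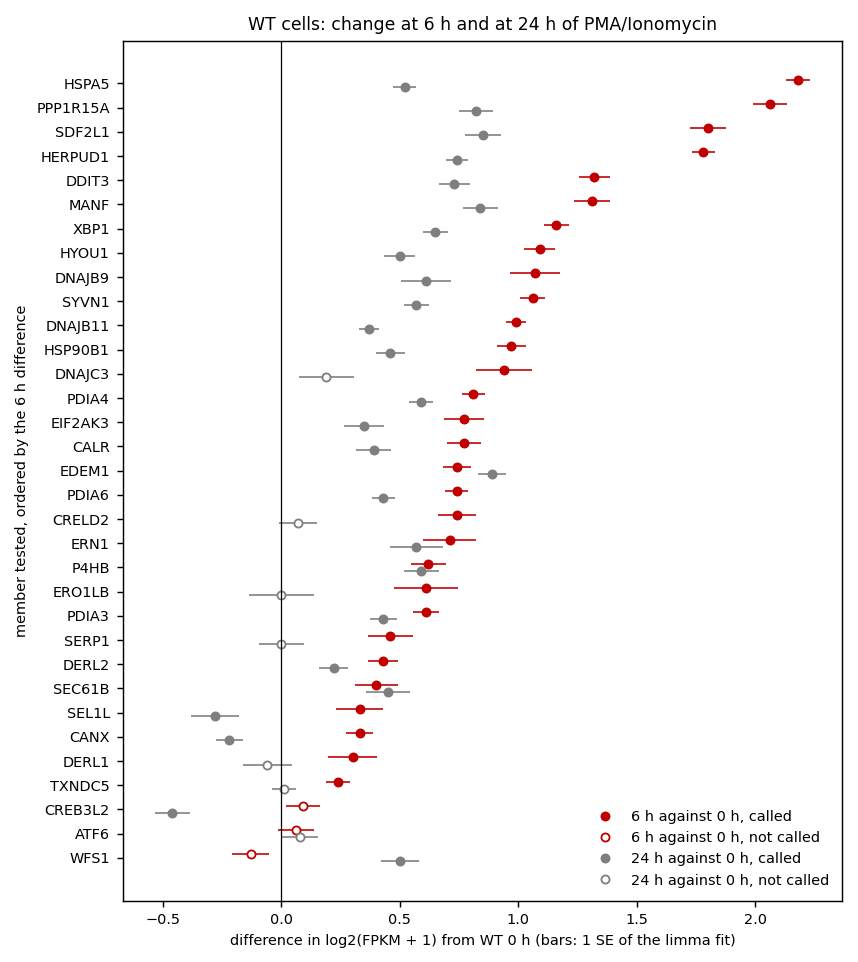
Points give the difference in log2(FPKM + 1) from WT 0 h for the 33 tested members at 6 h (red) and 24 h (grey), with 1 SE of the limma fit. Filled points are called at an adjusted p under 0.05. At 6 h 30 members lie to the right of 0 and are called, and at 24 h most have moved back toward 0 while EDEM1, WFS1 and SEC61B lie as far right or farther.

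By 24 h most members stood lower than at 6 h, and most were still above 0 h. Against 6 h, 27 members were lower and 1 higher in WT cells (26.3% and 20.5% of all features), and against 0 h 23 were still higher and 3 lower (26.5% and 28.2%). The count of members above 0 h at 24 h was thus well above the background share, and the members' median log2 difference from 0 h was 0.45 against -0.02 over all features. On TPM, 22 members were lower and 2 higher at 24 h than at 6 h, and the share of all called features that were higher went from 43.7% to 64.3%. The pattern of a rise at 6 h, a fall from 6 h to 24 h and a level still above 0 h held for 18 members and for 3.70% of all features. It was met by HSPA5, HSP90B1, CALR, HYOU1, MANF, the co-chaperones DNAJB9, DNAJB11 and SDF2L1, the isomerases PDIA3, PDIA4 and PDIA6, XBP1, EIF2AK3, DDIT3, PPP1R15A, HERPUD1, SYVN1 and DERL2. At 24 h HSPA5 held 12.3% of the FPKM it had gained by 6 h (log2 difference from 6 h -1.66, SE 0.0491, adjusted p = 2.1e-07), PPP1R15A 24.0%, HERPUD1 27.6% and SDF2L1 32.2%. The median over the 30 members that rose was 39.0%. XBP1 held 46.0%, DDIT3 44.5% and MANF 53.5%.

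Other members took other courses in WT cells. CRELD2, DNAJC3, ERO1LB, TXNDC5, DERL1 and SERP1 rose and were no longer called against 0 h at 24 h. P4HB, ERN1, EDEM1 and SEC61B rose and were not called between 6 h and 24 h. P4HB stood at 413 and 390 FPKM at 24 h and held 94.8% of its gain. EDEM1 stood at 30.6 and 30.6 FPKM, a log2 difference from 0 h of 0.89 (SE 0.0598, adjusted p = 8.3e-06) that was the largest of the members at 24 h. CANX (274 and 289 FPKM) and SEL1L (7.98 and 8.46) fell below 0 h, by 0.22 and 0.28 on the log2 scale (adjusted p = 0.0119 and 0.0451), but CANX was not called without WT 0 h replicate 2 or WT 24 h replicate 1 (log2 difference -0.17 and -0.18), nor SEL1L without any 1 of 7 libraries (-0.13 without WT 0 h replicate 2). DERL2, still higher at 24 h by 0.22, lost its call without WT 0 h replicate 2 or WT 24 h replicate 2 (0.21 and 0.17). CREB3L2 fell from 14.8 and 15.4 FPKM at 0 h to 10.1 and 11.4 (log2 difference -0.46, adjusted p = 0.000907). WFS1, wolframin of the ER membrane, was called at 24 h alone, from 9.37 and 9.39 to 13.6 and 13.9 FPKM (0.50, adjusted p = 0.000892). ATF6 was called in no comparison in WT cells.

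**Figure D3:**
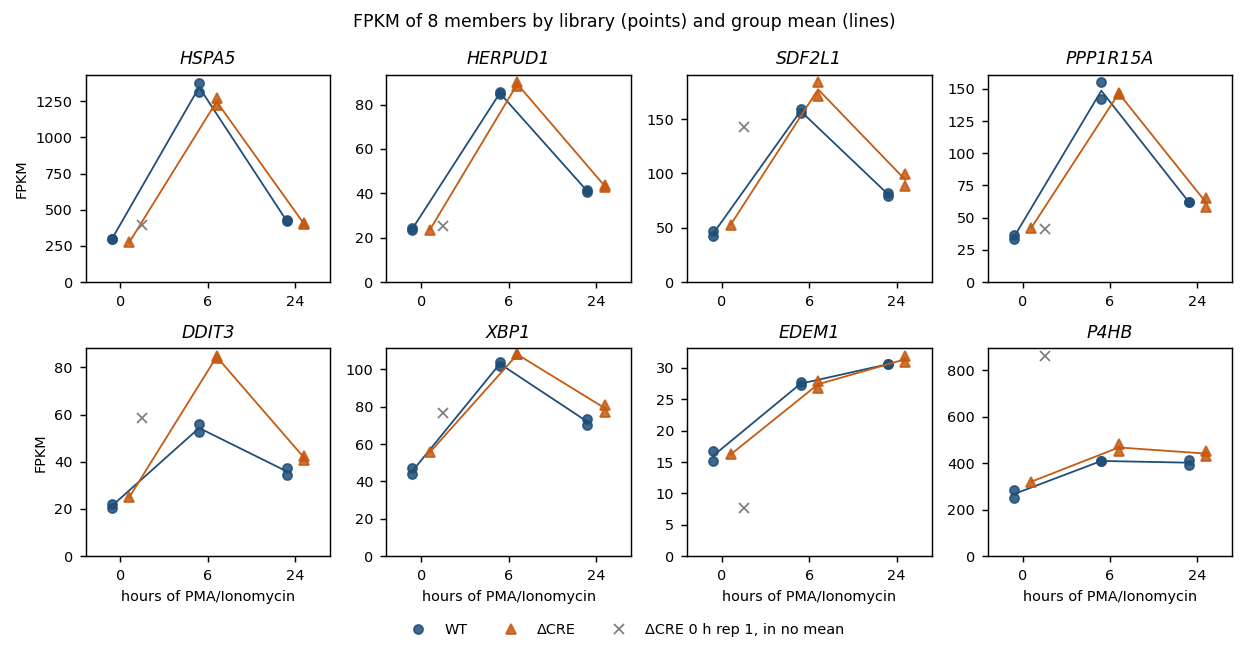
FPKM of 8 members at 0, 6 and 24 h of PMA/Ionomycin (times evenly spaced on the axis). Circles are WT libraries, triangles ΔCRE libraries, lines join group means, and the cross is the library labelled ΔCRE 0 h replicate 1, which is in no mean. HSPA5, HERPUD1, SDF2L1 and PPP1R15A peak at 6 h in both lines, DDIT3 is higher in ΔCRE cells at 6 h, and EDEM1 and P4HB keep their level at 24 h.

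The ΔCRE line, with no library in common with WT, gave the same list at 6 h. Both lines took the spread of each gene from the same fit of 11 libraries, so the 2 lists are not independent. In ΔCRE cells 30 members were called higher and 0 lower against 0 h (16.8% and 13.0% of all features). These were the 30 called in WT cells and the only ones with an unadjusted p under 0.05, a threshold at which the share of all features was not determined. HSPA5 again led with a log2 difference of 2.18 (SE 0.0601, adjusted p = 6.2e-08), followed by HERPUD1 (1.87), PPP1R15A (1.77), SDF2L1 (1.73) and DDIT3 (1.72). On TPM 25 were called, all higher, and the share of all called features that were higher went from 56.4% to 31.8%. At 24 h 23 members were higher and 1 lower than at 0 h (20.6% and 21.0%), the 23 being those of WT cells and the 1 being CREB3L2. Against 6 h, 27 were lower and 2 higher (27.5% and 22.1%), with WFS1 and EDEM1 as the pair that rose. All ΔCRE differences from 0 h rest on the single library at that time. The same 18 members showed the rise, partial fall and level above 0 h, against 2.49% of all features.

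Between the lines most differences were small and upward in ΔCRE cells. The members' median log2 difference was 0.13 at 6 h and 0.09 at 24 h, against 0.01 over all features at each time. This shift of the set was not tested. At 6 h, 4 members were higher in ΔCRE than in WT cells and 0 lower, where 3.62% of all features were called higher and 6.22% lower. At an unadjusted p under 0.05 there were 11 members, all higher, but the share of all features at this threshold was not determined. DDIT3 had the largest difference, 84.8 and 84.2 FPKM against 52.7 and 55.9 (1.56-fold, log2 difference 0.63, SE 0.0659, adjusted p = 0.00107). MARS and MBD6, which overlap it, differed by 0.03 (adjusted p = 0.855) and 0.05 (0.746), and the median difference of 175 features within 10 Mb was 0.00. CRELD2 stood at 40.9 and 37.1 FPKM against 30.7 and 30.5 (0.34, SE 0.0790, adjusted p = 0.0328), and ALG12, which overlaps it on the other strand, differed by 0.02. SYVN1 stood at 49.8 and 48.6 FPKM against 40.7 and 39.2 (0.29, SE 0.0521, adjusted p = 0.0108). It overlaps FAU on the same strand and MRPL49 on the other (differences 0.02 and 0.19), and counting by strand would not separate exons shared with FAU. PDIA4 stood at 250 and 243 FPKM against 216 and 211 (0.21, SE 0.0495, adjusted p = 0.0347). In all 4 genes both ΔCRE libraries lay above both WT libraries. The same held for 25 of the 33 tested members, and the reverse for 3, so it does not set the 4 apart. These counts were not made over all features. The DDIT3 call held with each of the 11 libraries left out (adjusted p from 0.00106 to 0.0183), whereas CRELD2, SYVN1 and PDIA4 were lost without either WT or either ΔCRE library of 6 h, which left 1 call each time. PDIA4 was also lost without either WT 24 h library, which left 3. With all 12 libraries fitted, limma called 0 members, and 1 had an unadjusted p under 0.05.

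Whether the lines differed in their response was a separate test. For DDIT3 the 6 h response was larger in ΔCRE than in WT cells by 0.41 on the log2 scale (SE 0.104, 95% interval 0.17 to 0.64 before adjustment), with an adjusted p of 0.301, and it was -0.19 with all 12 libraries fitted. No member was called in this test at 6 h or at 24 h, where 0.267% and 0.275% of all features were, and 3 and 1 members had an unadjusted p under 0.05. This does not show that the responses were alike. For HSPA5 the difference between the lines' 6 h responses was -0.00, with a 95% interval of -0.18 to 0.17. For HERPUD1 it was 0.10 (-0.08 to 0.27), for XBP1 -0.21 (-0.41 to -0.02) and for PPP1R15A -0.29 (-0.55 to -0.03), the last 2 with adjusted p of 0.560 and 0.555. At 24 h 0 members were called between ΔCRE and WT cells in either direction, while 2.35% of all features were higher and 3.97% lower. That count depended on the fit, since members were called with a replicate block, as given below. The smallest adjusted p was that of PDIA4 (0.0730), and 11 members had an unadjusted p under 0.05, 10 of them higher in ΔCRE cells. For none of these tests was the share of all features with an unadjusted p under 0.05 determined. On TPM the share of all called features that were higher at 24 h went from 37.2% to 24.7%. At 0 h no test was made: the single ΔCRE library lay above both WT libraries for 20 of the 34 members, below both for 5 and between them for 9. These counts were not made over all features, so they cannot be read as particular to the members.

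**Figure D4:**
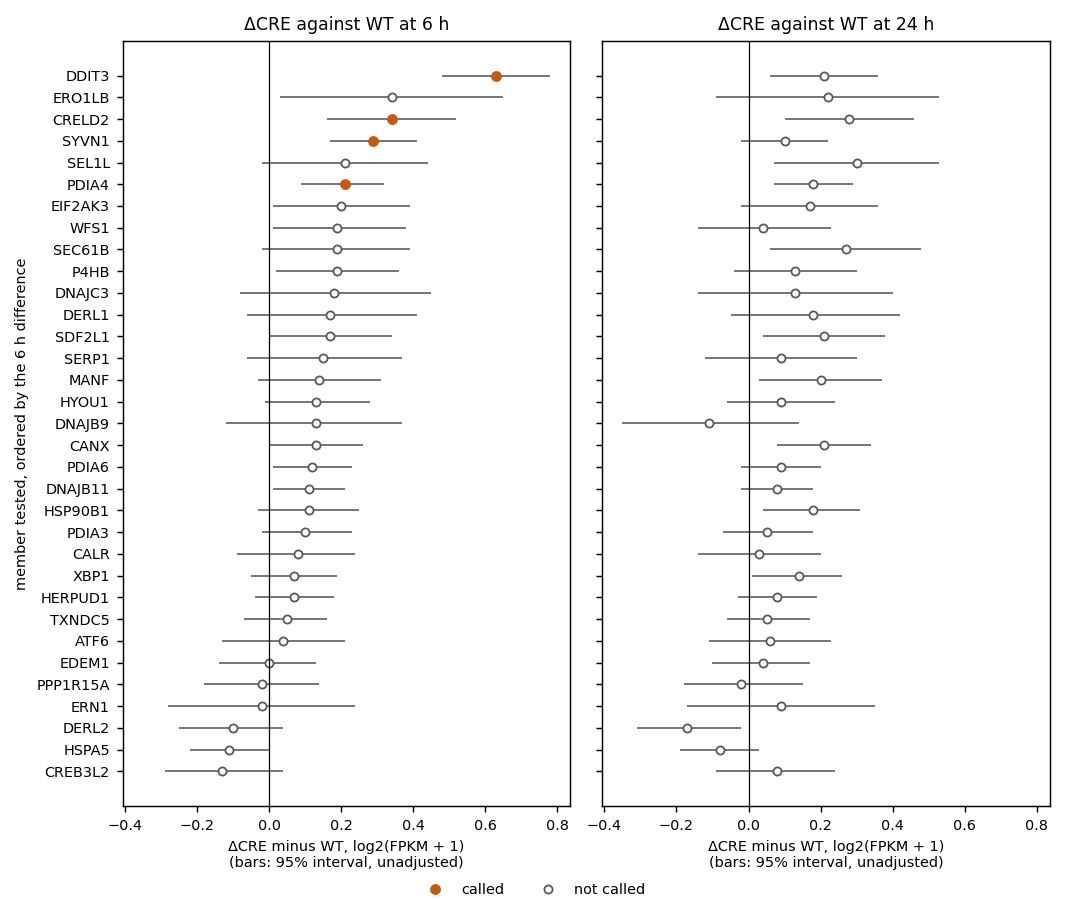
Points give ΔCRE minus WT in log2(FPKM + 1) for the 33 tested members at 6 h (left) and 24 h (right), with unadjusted 95% intervals of the limma fit. DDIT3, CRELD2, SYVN1 and PDIA4 are called at 6 h (filled), no member is called at 24 h, and most points lie slightly to the right of 0.

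Members with and without an ERSE or ERSE-II in the window overlapped in size of change. Only exact letters within the window were searched, so a member with neither may hold variant or more distant sites. The 12 members with an ERSE or ERSE-II in the window had log2 differences at 6 h in WT cells from 0.33 (CANX) to 2.18 (HSPA5), with a median of 0.87. The 19 members with neither ranged from -0.13 (WFS1) to 2.06 (PPP1R15A), with a median of 0.74. HERPUD1, SDF2L1 and HYOU1, the members with ERSE-II, had differences of 1.78, 1.80 and 1.09. Of 7 other tested genes with an ERSE, 2 were called higher and 2 lower at 6 h, of 10 with an ERSE-II 4 were higher and 0 lower, and of 111 with a UPRE 27 were higher and 18 lower, where 23.3% of all features were higher and 21.1% lower. Among those 7 genes FICD, an ER enzyme that modifies BiP, rose most (1.36, SE 0.106, adjusted p = 2.4e-05). The ERSE windows of CRELD2 and SERP1 are shared with ALG12 and EIF2A, which start in the other direction and had log2 differences of 0.20 (adjusted p = 0.191) and 0.03 (0.801).

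Further genes of the pathway changed in smaller shares. The genes named are, of each list, the called ones with the largest change at either 6 h or 24 h, and the log2 differences are at 6 h where no time is given. Of 27 other ER folding enzymes, 9 were called higher and 3 lower in WT cells at 6 h, with the isomerase PDIA5 at 0.79, FKBP7 at -0.75 (-0.76 at 24 h) and the glucosidase MOGS at 0.68 (0.77 at 24 h). Of 25 genes of translocon, signal peptidase and glycosylation, 13 were higher and 1 lower, with SEC61A1 of the channel at 0.64, SSR3 of the translocon-associated complex at 0.61, and DAD1 of the oligosaccharyltransferase at 0.62 at 24 h (0.18 at 6 h, not called, adjusted p = 0.160). Of 25 genes of ER to Golgi transport, 12 were higher and 1 lower, with the coat protein SEC24D at 1.13, ARFGAP3 at 0.75 and SEC24C at 0.38 (0.62 at 24 h). Of 22 other degradation genes, 5 were higher and 2 lower, with VIMP at 1.13, AUP1 at 0.72 (0.81 at 24 h) and TMEM129 at -0.58 (-0.68 at 24 h). The last list lay close to the background of 23.3% called higher and the other 3 lists above it, all below the share of the members. Of 14 other stress transducers and their processing factors, 4 were higher and 5 lower, with the death regulator BBC3 at 1.10, CREB3 at 0.93 and BCL2L11 at -0.61 (-0.85 at 24 h). Of 16 chaperones of cytosol and mitochondria, which serve outside the ER, 7 were higher and 0 lower, with HSPA1B at 1.15, HSPA8 at 1.12 and HSPA1A at 0.69; HSPA1A and HSPA1B are near-identical copies, so the split of reads between them is uncertain.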

How the data were processed

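The 12 RNA libraries came from MDA-MB-231 cells, WT or ΔCRE, stimulated for 0, 6 or 24 h, with 2 biological replicates per group, grouped by genotype, time and replicate number in the sample labels. Libraries were made with a stranded mRNA kit. The authors mapped reads to hg19 with TopHat, estimated expression with Cufflinks and deposited FPKM values per gene. The gene annotation, any scaling between libraries and the use of strand in counting are not given in the sources used here. Low FPKM values showed no whole-read steps, so sequencing depth is unknown and counting intervals could not be given. The names of 2 columns hold a digit in place of a letter and were matched to the only labels left.

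From these values log2(FPKM + 1) was computed for 11 libraries, and 11256 features averaging 1 FPKM or more entered limma 3.58.1 under R 4.3.3 (lmFit, eBayes with trend, 6 groups in 1 model, Benjamini-Hochberg adjustment, threshold 0.05). Fold changes on this scale understate those of low genes. The script was tested on simulated data. The members, the other gene lists and the exclusion of the library labelled ΔCRE 0 h replicate 1 were chosen with earlier results of these data known. Values per library were given for called members that changed at least 1.5-fold in WT cells or differed between the lines, and for HSPA5, DDIT3, XBP1, HERPUD1 and PPP1R15A. From other lists at most the 3 called genes with the largest change in WT cells were named. FICD, ALG12, EIF2A, MARS, MBD6, FAU, MRPL49, ETS1 and IL8, and the ATF4 targets other than CHAC1, VLDLR and CEBPB, lie outside that rule and were named after their values were seen. Each result was recomputed with 0.1 as pseudocount, without the filter or with a minimum of 5 FPKM, after quantile normalization or rescaling to TPM, with all 12 libraries, without the trend in eBayes, with a replicate block, and leaving out each library. Python 3.11.15 with pandas 2.3.3 was used for counts and promoter searches.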

Additional observations from a re-analysis of the deposited data

Results flagged for a closer look

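The library labelled ΔCRE 0 h replicate 1 entered no comparison of the 11 libraries, and 7 members were higher in it than in any of the other 11 libraries. P4HB stood at 862 FPKM there, SEC61B at 494, MANF at 437, PDIA3 at 420, SERP1 at 68.9, CRELD2 at 44.0 and DERL3 at 4.33. In that library 8 members lay below all 11 others (CANX, HYOU1, ERN1, EIF2AK3, EDEM1, SYVN1, ERO1LB and TXNDC5) and 19 lay within their range. Gut epithelium markers (10282 FPKM in sum) and fibroblast and leukocyte markers (449 against 1.83 to 3.98) moved with these values, and their part in them was not tested. The counts of members above, below and within the range of the 11 libraries were not made over all features. They cannot be read as particular to the members.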

How the results depend on the processing

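The numbers of members called over time stayed within 1.5-fold under each alternative except the fit of all 12 libraries, which called 9 members instead of 30 in WT cells at 6 h against 0 h, 7 instead of 26 at 24 h against 0 h and 6 instead of 28 at 24 h against 6 h. In ΔCRE cells it called 12 instead of 30, 7 instead of 24 and 7 instead of 29. Between the lines at 6 h it called 0 instead of 4. With 1 library left out in turn, the counts ran from 27 to 30, 24 to 26 and 24 to 29 in WT cells, from 28 to 30, 21 to 24 and 26 to 29 in ΔCRE cells, from 1 to 4 between the lines at 6 h, and were 0 to 0 between the lines at 24 h and for the differences of response. Without ΔCRE 0 h replicate 2 the comparisons with ΔCRE 0 h gave no value. Left with 1 library, a group was assumed to vary like the others. The main fit did not pair the libraries by replicate number. Over 10 pairs of groups the deviations correlated at -0.068 to 0.202, with 2 above 0.1. A replicate block still raised the number of features called in every comparison, from 712 to 1407 between the lines at 24 h. Whether libraries of the same replicate number share an effect was not tested. With the replicate block, 8 members instead of 0 were called between the lines at 24 h (7 higher in ΔCRE cells, led by SEL1L at 0.30 and CRELD2 at 0.28, and DERL2 lower at -0.17), and the other counts stayed within 1.5-fold. At 6 h quantile normalization added HSPA5 as lower in ΔCRE cells (-0.21, adjusted p = 0.0343), TPM and the block each added P4HB as higher (0.18 and 0.19), CRELD2 was lost without the filter and PDIA4 without the trend. Of the named log2 differences, the 6 h response difference of DDIT3 turned from 0.41 to -0.19 with all 12 libraries, and that of HSPA5 (-0.00) was 0.00 under the block and ran from -0.04 to 0.03 with 1 library left out, 0.03 being the value without WT 6 h replicate 2 or without ΔCRE 6 h replicate 2. No other reversed. FPKM keeps no fragment numbers, so low members such as ERN1, ERO1LB and DNAJB9 carry an unknown counting error.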

Other observations

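PERK and other eIF2α kinases feed a branch that runs through ATF4, and 12 of its genes were listed. Of 10 tested, 8 were called higher and 1 lower in WT cells at each time against 0 h. Over all features, 23.3% were higher and 21.1% lower at 6 h, and 26.5% and 28.2% at 24 h. Between 6 h and 24 h 5 of the 10 rose and 3 fell, where 20.5% of all features rose and 26.3% fell. Of the 33 folding and stress genes 1 rose and 27 fell. CHAC1, a glutathione-degrading enzyme, went from 2.11 and 2.16 FPKM at 0 h to 5.89 and 5.48 at 6 h and 12.1 and 12.7 at 24 h (log2 differences from 0 h 1.09 and 2.09). VLDLR, a lipoprotein receptor, had differences of 0.65 and 1.63 and the asparagine synthetase gene ASNS 0.21 and 1.14. TRIB3, a pseudokinase that binds ATF4, had a difference of 1.46 at 24 h. ATF4 mRNA itself differed by 0.39 and 0.60. CEBPB, a partner of ATF4, was higher by 2.27 at 6 h and 1.72 at 24 h, and ATF3 by 1.34 and 0.93. The gene called lower at 6 h was DDIT4, an inhibitor of mTORC1 signaling (-1.02, and 0.15 at 24 h), and the one called lower at 24 h was ATF5 (-1.05, and -0.21 at 6 h). In ΔCRE cells 8 of the 10 were higher and 1 lower at each time against 0 h, where 16.8% of all features were higher and 13.0% lower at 6 h, and 20.6% and 21.0% at 24 h. The difference in course between the lists was not tested.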
